A study of Mus musculus with 12 samples.

Results

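The amino acid transporter families of the solute carrier (SLC) genes were examined in the mouse colon. A gene was taken as a member where its platform symbol fell in the numbered series Slc1a, Slc3a, Slc6a, Slc7a, Slc36a, Slc38a or Slc43a and a probe set matched no other gene, with the brightest probe set kept per gene. This gave 60 of the 19938 genes measured, with 15 in Slc7, 2 in Slc3, 18 in Slc6, 7 in Slc1, 11 in Slc38, 4 in Slc36 and 3 in Slc43. Slc6a20a and Slc6a20b, whose symbols end in a letter, fell outside the rule. A few members carry other cargo, such as serotonin (Slc6a4), creatine (Slc6a8), taurine (Slc6a6) or purine nucleobases (Slc43a3), and were kept because the rule used symbols alone.

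Colon RNA was measured in 12 male wild-type C57BL/6 mice, each on its own Affymetrix Gene ST array, in 4 groups of 3. The mice began the experiment at 7 weeks of age and are labelled as 8 weeks and 3 days. Colitis was induced with 4% dextran sulfate sodium (DSS), which damages the lining of the colon, supplied as drinking water over 6 days. Ctrl mice had only water, and Ctrl+L-Arg mice had water and afterwards 1% L-arginine (L-Arg) over the last 4 days. DSS mice had DSS followed by 4 days of water, DSS+L-Arg mice had DSS followed by 4 days of 1% L-Arg, and colons were taken on day 10. The model is one of injury followed by repair in whole tissue, so fewer cells of a type and less RNA per cell cannot be told apart.

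Amino acids cross the plasma membrane mainly through carriers of this kind. Cationic amino acids such as L-Arg enter through the CAT uniporters of Slc7, while the other Slc7 proteins are light chains that exchange amino acids as partners of a heavy chain, Slc3a2 (4F2hc) or Slc3a1 (rBAT). Slc6 and Slc1 carriers concentrate amino acids with sodium, Slc38 carriers take up glutamine and other small neutral amino acids, Slc36 carriers move them with protons, and Slc43 carriers work by facilitated diffusion. In the intestine these proteins feed the epithelium, while activated macrophages and neutrophils use them for nitric oxide and glutathione synthesis.

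Signals are given as log2 values made with RMA, which removes background, brings the arrays to a common distribution and gives 1 value per probe set. The array medians lay between 6.49 and 6.64. Probe sets differ in brightness, so signals were compared between groups for a gene and never between genes. Of the 60 members, 46 exceeded 5.89, the 30th percentile over the whole table, on 3 arrays or more (76.7%, against 72.8% of all genes), and 36 did so on every array. The 14 dim members were Slc1a6, Slc38a3, Slc38a4, Slc38a8, Slc6a2, Slc6a5, Slc6a15, Slc6a16, Slc6a18, Slc7a2, Slc7a3, Slc7a12, Slc7a13 and Slc7a15. Differences were tested with limma over all genes, and a gene counts as called where its p, adjusted by Benjamini-Hochberg over all genes, was under 0.05. The median of 25 colonocyte markers of the epithelium was near the Ctrl mean in every array, between -0.11 and 0.04 on the log2 scale, and none of them had a mean under the 30th percentile. Of these 25, 1 was called in any comparison, Car4, which fell with DSS (-0.58, against 2.23% of all genes called lower). Single markers ran from -0.785 to 0.66 with DSS. Of them, 4 had an unadjusted p under 0.05, all lower (19.6% of all genes), and 6 did not overlap (25.0% of all genes). Without DSS mouse 3, 3 were called lower with DSS, as were 420 of all 19938 genes. Epithelial markers were thus measured above the dim range, but values relative to the Ctrl mean cannot test the colon label itself. The median of 19 neutrophil markers was 1.83, 1.27 and 4.11 above the Ctrl mean in the DSS mice, so that DSS mouse 3 stood apart, and values without it are given beside the results that rest on it.

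With DSS versus Ctrl, 1 of the 60 transporters was called, Slc7a11, which rose (1.67% of members, against 1.8% of all genes called higher and 4.03% called in either direction). No member was called lower, against 2.23% of all genes. The 2 groups did not overlap for 16 members (26.7%, against 25.0% of all genes), 7 higher (background 10.7%) and 9 lower (background 14.3%) in DSS. An unadjusted p under 0.05 was found for 15 members, against 19.6% of all genes. The median log2 fold change was -0.045 over the members and -0.0138 over all genes. These shares were near the background.

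With DSS+L-Arg versus DSS, 1 member was called, Slc7a3, which rose (background 0.115% called higher and 0.637% called). The groups did not overlap for 9 members, 4 higher (background 11.0%) and 5 lower (background 5.6%), against 16.6% of all genes in either direction. At an unadjusted p under 0.05 there were 8 members, against 13.5% of all genes. At an unadjusted p under 0.01 with a fold change over 1.5 there were 5 (background 2.08%), namely Slc7a3, which was higher, and Slc43a3, Slc6a6, Slc7a2 and Slc7a8, which were lower with L-Arg. Of these 5, Slc43a3 alone had a fold change over 2. The median log2 fold change was 0.065, against 0.0557 over all genes. With DSS+L-Arg versus Ctrl+L-Arg, 1 member was called, Slc7a8, which fell (background 0.105% called lower and 0.306% called). Here 11 members did not overlap between the groups, against 21.1% of all genes, and 11 had an unadjusted p under 0.05, against 15.6%. The arrays of DSS+L-Arg enter both comparisons, and those of DSS enter the first and the comparison with Ctrl, so the comparisons are not independent.

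With DSS+L-Arg versus Ctrl no member was called by limma (background 0.0652% called), 13 had an unadjusted p under 0.05 (background 12.6%) and 14 did not overlap (background 23.2%). At an unadjusted p under 0.01 it was 1 member, Slc7a8, for a fold change over 1.5 (background 1.35%) or over 2 (background 0.446%). L-Arg without colitis left no member called. In Ctrl+L-Arg versus Ctrl the lowest adjusted p was 0.999 with limma, no gene at all was called (0.0%), and 2 members had an unadjusted p under 0.05, against 3.44% of all genes. These were Slc43a1 (log2 fold change 0.225) and the betaine and GABA carrier Slc6a12 (0.265), both higher with L-Arg. In that comparison the groups did not overlap for 4 members, against 10.4% of all genes. The difference between the effect of L-Arg with DSS and without it was called for no member by limma (background 0.0752%), with 5 members at an unadjusted p under 0.05 (background 10.8%). At an unadjusted p under 0.01 they were Slc43a3 and Slc7a8 for a fold change over 2 (background 1.05%), and Slc7a3 besides for one over 1.5 (background 2.32%). SAM (a permutation method) and an unequal-variance test called none of the 19938 genes, and so no member, in any comparison between groups. With 20 labellings the adjusted p of SAM cannot pass, so its count says nothing about the members. At an unadjusted p under 0.05 SAM found 11 members for DSS versus Ctrl (3511 of all 19938 genes) and 7 for DSS+L-Arg versus DSS (1952 genes). It found 11 for DSS+L-Arg versus Ctrl+L-Arg (2831 genes), 15 for DSS+L-Arg versus Ctrl (3083 genes) and 1 for Ctrl+L-Arg versus Ctrl (963 genes). The unequal-variance test found 3, 3, 7, 9 and 1 members, against 1976, 1156, 1816, 1986 and 601 of all genes.

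**Figure D1:**
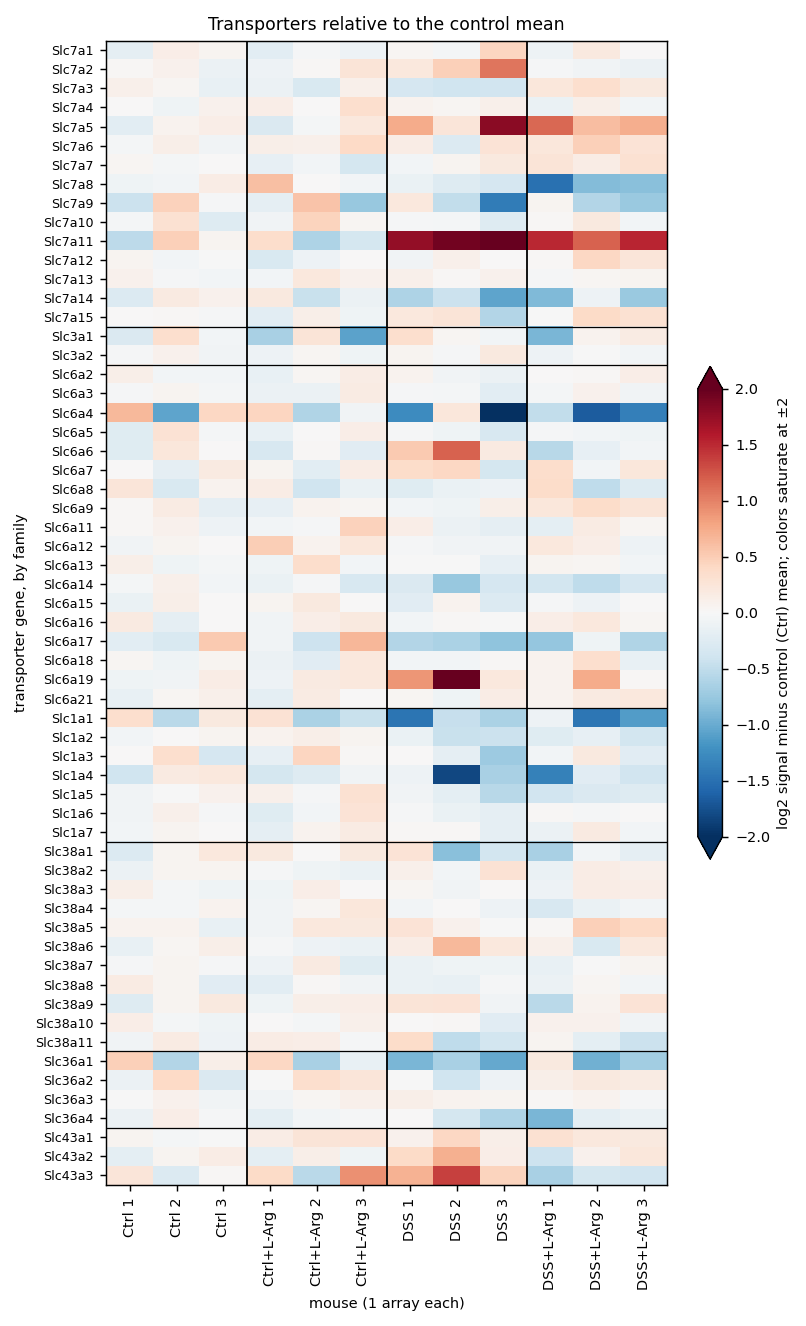
Log2 signal of each of the 60 transporters (rows, by family) in each of the 12 mice (columns, by group), minus the Ctrl mean of that gene, with colors that saturate at 2 in either direction. Slc7a11 is red in all 3 DSS and all 3 DSS+L-Arg mice, Slc7a8 is blue in the DSS+L-Arg mice, and most other rows stay pale or differ between mice of a group.

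Slc7a11 encodes xCT, the light chain that brings cystine into cells in exchange for glutamate and supplies cysteine for glutathione. Its signal was 4.85, 5.84 and 5.42 in the Ctrl mice and 5.73, 4.76 and 5.02 in the Ctrl+L-Arg mice. It was 7.12, 7.31 and 9.67 in the DSS mice and 6.88, 6.54 and 6.89 in the DSS+L-Arg mice. Every DSS mouse, with or without L-Arg, lay above every mouse without DSS, and DSS mouse 3 lay far above the rest. Slc7a11 rose with DSS by 2.66 on the log2 scale (SE 0.55, 95% interval 1.45 to 3.87, 6.33-fold, limma adjusted p = 0.0241). All 6 mice without DSS lay under 5.89, so Slc7a11 passed the low-value filter only through the mice given DSS, with or without L-Arg. The fold is taken over a baseline near the low end of the arrays. Without DSS mouse 3 the rise was 1.845 (limma adjusted p = 0.011). The call was lost without Ctrl mouse 1 (2.40, adjusted p = 0.0991), without Ctrl mouse 3 (2.685, adjusted p = 0.089), and in a fit of only these 2 groups (adjusted p = 0.133).

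The DSS+L-Arg mice lay below the DSS mice in Slc7a11, without overlap, but the difference did not pass the test (log2 fold change -1.26, unadjusted p = 0.0425, limma adjusted p = 0.348). Without DSS mouse 3 it was -0.44 (limma adjusted p = 0.54). Against Ctrl+L-Arg the DSS+L-Arg mice were at 1.61 (limma adjusted p = 0.212), and against Ctrl at 1.40 (limma adjusted p = 0.33). In a fit of only DSS+L-Arg and Ctrl+L-Arg Slc7a11 was called higher with DSS (limma adjusted p = 0.0317).

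Marker medians of neutrophils and of macrophages were, like the Slc7a11 mean, higher in DSS than in Ctrl and lower in DSS+L-Arg than in DSS. Of the 19 neutrophil markers measured, 12 rose with DSS (1.8% of all genes). In DSS+L-Arg versus DSS 4 fell (Lcn2, Mmp8, Ngp and S100a9), as did 104 of all 19938 genes. Of the 19 markers, 7 had a mean under the 30th percentile. RMA gives no value of 0. Their summed signal relative to the Ctrl mean was 0.435 to 1.33 in Ctrl, 0.306 to 1.20 in Ctrl+L-Arg, 2.57 to 7.29 in DSS and 0.713 to 2.09 in DSS+L-Arg. Without DSS mouse 3, 12 rose with DSS (323 of all 19938 genes) and 6 fell in DSS+L-Arg versus DSS (114 of all genes). In DSS+L-Arg versus Ctrl 17 of the 19 had a positive log2 fold change, with a median of 0.368, and none was called by limma or had an unadjusted p under 0.05. Among 22 markers of monocytes and macrophages, 12 rose with DSS (1.8% of all genes) and 5 fell in DSS+L-Arg versus DSS (104 of all 19938 genes). Of the 22, 2 had a mean under the 30th percentile. Their summed signal was 0.943 to 1.07 in Ctrl, 0.89 to 1.59 in Ctrl+L-Arg, 1.74 to 2.90 in DSS and 1.1 to 1.285 in DSS+L-Arg. Of 12 mast cell markers Mcpt1 and Mcpt2 rose with DSS, by 2.31 and 2.81 (1.8% of all genes called higher). Both were also called higher in DSS+L-Arg versus Ctrl and versus Ctrl+L-Arg (6 and 40 of all 19938 genes). Of 14 markers of B and plasma cells none was called by limma in any comparison, and 2 had an unadjusted p under 0.05 with DSS, against 19.6% of all genes. The part of these cells in the Slc7a11 values was not tested.

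**Figure D2:**
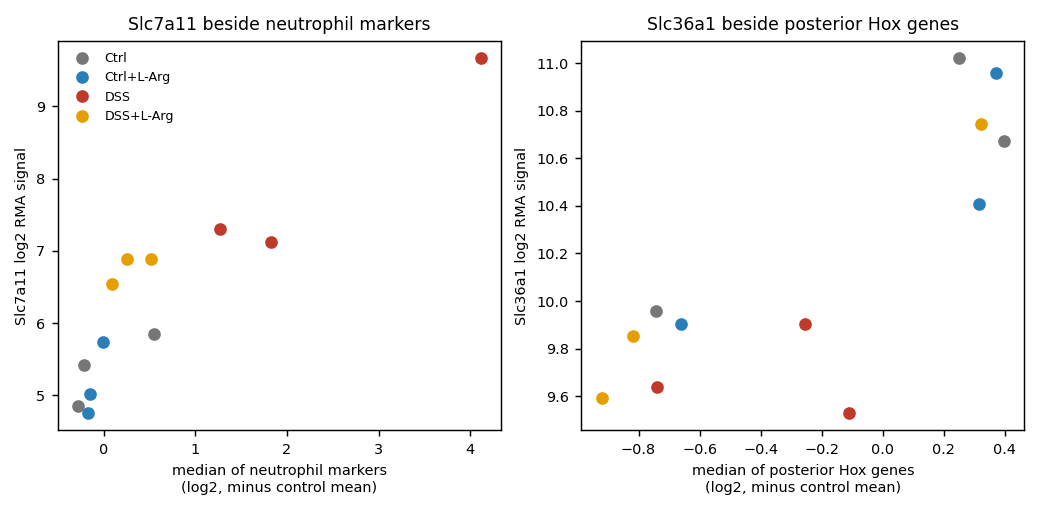
Left, log2 signal of Slc7a11 in each mouse against the median of 19 neutrophil markers relative to the Ctrl mean, and right, log2 signal of Slc36a1 against the median of 10 posterior Hox genes, with each point a mouse colored by group. DSS mouse 3 is highest on both axes at left (9.67 and 4.11), and at right the 5 mice with Hox values above 0 have the 5 highest Slc36a1 signals.

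The promoter of Slc7a11 is shown because it is the member that rose with DSS and because its letters can be read against those of the other members. The 250 bases before its start, from the RefSeq table of build GRCm38.p6 (chr3:50443614-50443863, minus strand, 5′ to 3′), are given with the matches to the C/EBP-ATF response element in capitals. This element is TGATGNAA, or TTNCATCA on the other strand, and is the sequence through which ATF4 and C/EBP proteins act on genes of the amino acid response.
Slc7a11 upstream: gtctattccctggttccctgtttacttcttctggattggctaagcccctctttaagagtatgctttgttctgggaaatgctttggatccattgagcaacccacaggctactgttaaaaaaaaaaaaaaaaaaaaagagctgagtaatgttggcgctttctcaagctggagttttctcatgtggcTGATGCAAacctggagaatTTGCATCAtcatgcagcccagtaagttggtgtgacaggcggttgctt
The 2 matches lie on opposite strands, at bases -66 to -59 and -47 to -40 from the start.

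A promoter window in the table spans 250 bases before and 50 after a start, and 43 members had 64 windows. This element was in 5 of the 64 windows, from 4 members, and in 1304 of all 32851 windows (3.97%). The other 3 members are shown for comparison with Slc7a11, each as 30 bases around the match in capitals.
Slc1a4, chr11:20332699-20332728, minus strand: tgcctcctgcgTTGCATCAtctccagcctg
Slc7a7, chr14:54418067-54418096, minus strand: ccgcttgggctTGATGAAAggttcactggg
Slc7a7, chr14:54417927-54417956, minus strand: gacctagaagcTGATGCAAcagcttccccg
Slc6a21, chr7:45282834-45282863, plus strand: agaggtgagaaTTACATCAagtgggcctcc
None of these 3 genes was called in DSS versus Ctrl, where Slc7a11 rose. The log2 fold change there was -0.86 for Slc1a4, 0.07 for Slc7a7 and 0.03 for Slc6a21. In DSS+L-Arg versus Ctrl+L-Arg Slc7a11 was at 1.61 and Slc7a7 at 0.42 (limma adjusted p = 0.212 and 0.0998). The means of Ctrl+L-Arg and DSS+L-Arg were 9.21 and 8.78 for Slc1a4, and 5.78 and 5.95 for Slc6a21. The core of the antioxidant response element (TGACNNNGC, or GCNNNGTCA on the other strand), through which NRF2 acts, was in 11 of the 64 member windows, from 9 members, and in 12.4% of all windows, and was not found in this window of Slc7a11. Matches are descriptions of letters, and nothing about the factors follows from them. Slc7a2, Slc7a3 and Slc7a5 had no window in the table, and the window of Slc7a8 held neither motif.

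The other light chains were measured beside their heavy chains. Slc3a2, the heavy chain of xCT and of most Slc7 exchangers, was between 11.57 and 11.86 in all 12 mice, and its log2 fold change with DSS was 0.08 (95% interval -0.11 to 0.27, limma adjusted p = 0.701). Slc3a1, which pairs with Slc7a9 for the uptake of cystine and cationic amino acids, had a log2 fold change of 0.11 with DSS (limma adjusted p = 0.912) and ranged from 9.74 to 11.15. Neither heavy chain was called, or had an unadjusted p under 0.05, in any comparison with limma. Slc7a9 itself ranged from 6.17 in DSS mouse 3 to 8.15 in Ctrl+L-Arg mouse 2 and had a log2 fold change of -0.57 with DSS (limma adjusted p = 0.514), or -0.15 without DSS mouse 3.

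Slc7a8 encodes LAT2, an exchanger of neutral amino acids on the basolateral side of epithelia. Its signal was 8.37, 8.40 and 8.61 in the Ctrl mice, 9.07, 8.47 and 8.41 in the Ctrl+L-Arg mice, 8.33, 8.20 and 8.12 in the DSS mice, and 6.97, 7.59 and 7.63 in the DSS+L-Arg mice. All 3 DSS+L-Arg mice lay below the other 9 mice. Slc7a8 fell by 1.25 on the log2 scale in DSS+L-Arg versus Ctrl+L-Arg (SE 0.20, 95% interval -1.685 to -0.815, 2.38-fold, limma adjusted p = 0.0379).

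Against Ctrl the log2 fold change of Slc7a8 in DSS+L-Arg was -1.06 (limma adjusted p = 0.0926), and against DSS it was -0.82 (unadjusted p = 0.00157, limma adjusted p = 0.11). With DSS versus Ctrl it was -0.24, without overlap (limma adjusted p = 0.559). The effect of L-Arg with DSS minus that without it was -1.01 (SE 0.28, unadjusted p = 0.00406, limma adjusted p = 0.236). The call against Ctrl+L-Arg was lost without Ctrl mouse 1, 2 or 3 (limma adjusted p = 0.0669, 0.0504 and 0.061), without Ctrl+L-Arg mouse 1 or 3 (0.136 and 0.149), and without DSS+L-Arg mouse 1, 2 or 3 (0.108, 0.0806 and 0.142). It was also lost in a fit of only these groups (limma adjusted p = 0.0652). With any mouse left out the log2 fold change lay between -1.37 and -1.04. The median of the colonocyte markers in the DSS+L-Arg mice was 0.02, -0.10 and -0.03 relative to the Ctrl mean. The median of 18 smooth muscle markers was -1.06, -0.27 and -0.91 there, -0.65, -0.74 and -1.12 in DSS, -0.31, -0.37 and 0.69 in Ctrl and 0.29, -0.56 and 1.08 in Ctrl+L-Arg. Their summed signal was 0.74 to 1.5 in Ctrl, 0.635 to 2.0 in Ctrl+L-Arg, 0.385 to 0.561 in DSS and 0.428 to 0.804 in DSS+L-Arg, and none had a mean under the 30th percentile. None was called by limma in any comparison, and 11 had an unadjusted p under 0.05 in DSS+L-Arg versus Ctrl+L-Arg, all lower (15.6% of all genes in either direction). The part of muscle in the Slc7a8 values was not tested.

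Slc7a5, which encodes LAT1, the exchanger for large neutral amino acids in dividing cells, was 8.79, 9.07 and 9.13 in Ctrl and 8.72, 8.96 and 9.21 in Ctrl+L-Arg. It was 9.74, 9.25 and 10.81 in DSS and 10.15, 9.62 and 9.73 in DSS+L-Arg. It was chosen for mention after its values were seen, since the DSS and the DSS+L-Arg mice all lay above the mice without DSS. The log2 fold change was 0.93 with DSS (limma adjusted p = 0.125) and 0.87 in DSS+L-Arg versus Ctrl+L-Arg (limma adjusted p = 0.23), and between DSS+L-Arg and DSS it was -0.10 (95% interval -0.79 to 0.59). DSS mouse 3 was again the highest. Without that mouse the change with DSS was 0.495 (limma adjusted p = 0.215) and that between DSS+L-Arg and DSS was 0.34, while without DSS mouse 2 the first passed (1.275, limma adjusted p = 0.0404).

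Slc7a7 encodes y+LAT1, which releases L-Arg and other cationic amino acids from epithelial cells toward the blood. It was 10.13, 10.04 and 10.09 in Ctrl, 9.92, 10.03 and 9.74 in Ctrl+L-Arg, 10.04, 10.14 and 10.29 in DSS and 10.35, 10.23 and 10.39 in DSS+L-Arg. The differences were small and the DSS+L-Arg mice lay above both groups without DSS. In DSS+L-Arg versus Ctrl+L-Arg the log2 fold change was 0.42 (95% interval 0.21 to 0.64, unadjusted p = 0.00123, limma adjusted p = 0.0998). It passed with array weights (0.47, limma adjusted p = 0.0371). With DSS versus Ctrl the log2 fold change was 0.07 (limma adjusted p = 0.776). Its related exchanger Slc7a6 (y+LAT2) was at 0.05 with DSS (limma adjusted p = 0.902). Over the 10 light chains, the median log2 fold change in DSS+L-Arg versus Ctrl was 0.225, against 0.0269 over all genes, with 8 of 10 positive, 0 called by limma, and 4 higher and 1 lower at an unadjusted p under 0.05 (12.6% of all genes in either direction). Their median in DSS versus Ctrl was 0.031, with 2 of 10 at an unadjusted p under 0.05 (19.6% of all genes).

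**Figure D3:**
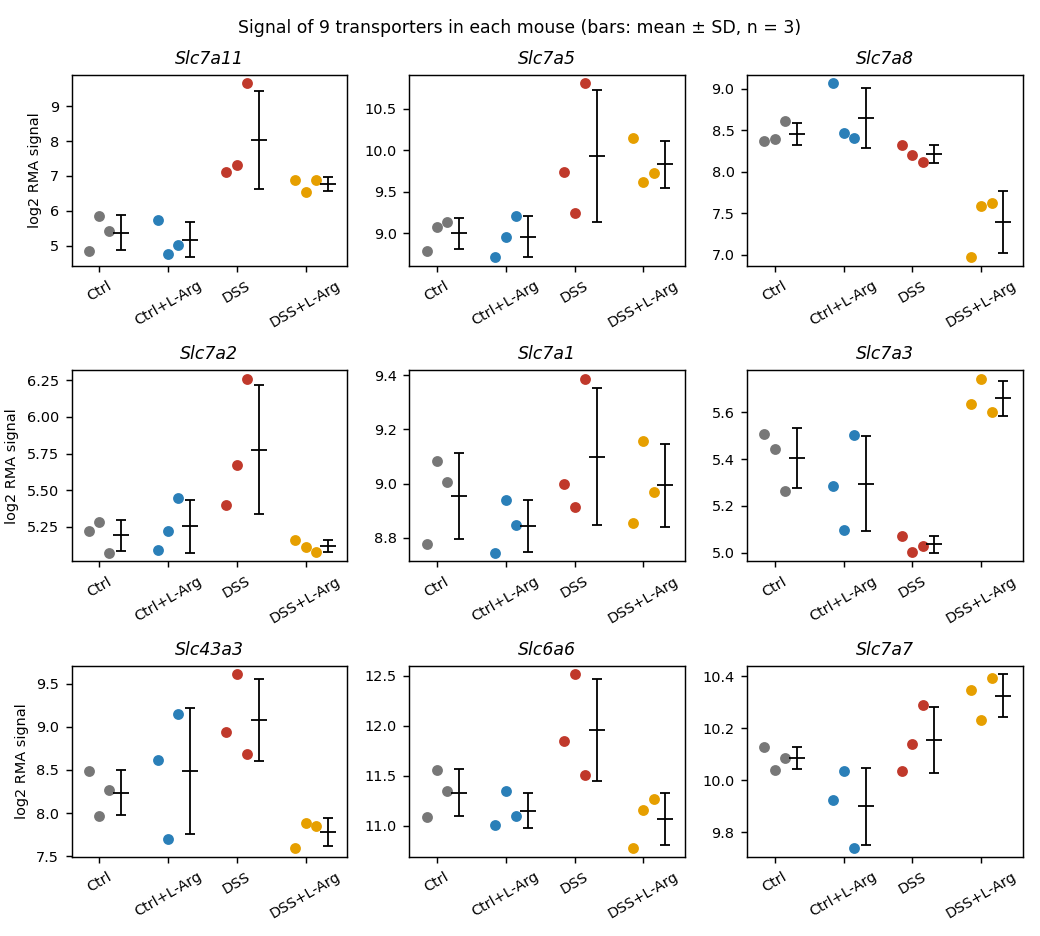
Log2 RMA signal of 9 transporters in each mouse, by group (n = 3), with bars for the mean ± SD, each panel on its own axis. Slc7a11 and Slc7a5 are higher in the DSS and DSS+L-Arg mice, Slc7a8 is lower in the DSS+L-Arg mice, and Slc7a2 and Slc7a3 stay between 5.0 and 6.26.

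The CAT uniporters carry L-Arg into cells and are the members most closely tied to the question of the study. Slc7a1 (CAT1), the widely expressed form, was 8.78, 9.08 and 9.01 in Ctrl, 8.75, 8.94 and 8.85 in Ctrl+L-Arg, 9.0, 8.91 and 9.39 in DSS and 8.85, 9.16 and 8.97 in DSS+L-Arg. All groups overlapped. Slc7a1 had a log2 fold change of 0.14 with DSS (95% interval -0.155 to 0.44, limma adjusted p = 0.634) and -0.11 in DSS+L-Arg versus DSS (95% interval -0.40 to 0.19, limma adjusted p = 0.766). Without DSS mouse 3 they were 0.0 and 0.04.

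Slc7a2 (CAT2), the form induced together with iNOS in activated macrophages, was 5.22, 5.28 and 5.07 in Ctrl and 5.09, 5.22 and 5.45 in Ctrl+L-Arg. It was 5.40, 5.67 and 6.26 in DSS and 5.16, 5.11 and 5.08 in DSS+L-Arg. Only DSS mouse 3 exceeded 5.89, the 30th percentile of all values, and the DSS mice lay above the Ctrl and the DSS+L-Arg mice. Slc7a2 had a log2 fold change of 0.585 with DSS (SE 0.18, unadjusted p = 0.0074, limma adjusted p = 0.0938) and -0.66 in DSS+L-Arg versus DSS (unadjusted p = 0.00355, limma adjusted p = 0.154). Without DSS mouse 1 the first was 0.77 and passed (limma adjusted p = 0.0207), and without DSS mouse 3 it was 0.34 (limma adjusted p = 0.158). The second was -0.85 and passed without DSS mouse 1 (limma adjusted p = 0.0336), and was -0.42 without DSS mouse 3 (limma adjusted p = 0.162). Markers of neutrophils and macrophages moved with it, and their part in it was not tested.

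Slc7a3 (CAT3), best known from the brain, was 5.51, 5.44 and 5.26 in Ctrl, 5.29, 5.10 and 5.50 in Ctrl+L-Arg, 5.07, 5.0 and 5.03 in DSS and 5.63, 5.74 and 5.60 in DSS+L-Arg. All 12 values were under the 30th percentile. The DSS mice were lowest and the DSS+L-Arg mice highest, with no overlap with any other group. Slc7a3 rose in DSS+L-Arg versus DSS by 0.63 on the log2 scale (SE 0.11, 95% interval 0.39 to 0.87, 1.54-fold, limma adjusted p = 0.0359). With DSS versus Ctrl the log2 fold change was -0.37 (limma adjusted p = 0.084).

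The effect of L-Arg on Slc7a3 with DSS minus that without it was 0.735 (unadjusted p = 0.000546, limma adjusted p = 0.131). Slc7a3 stands in the study's own list of genes lower with DSS and normalized with L-Arg, which was drawn from these arrays, so the list is no independent evidence of this direction. The call was lost when any of 9 mice was left out, namely Ctrl 1, 2 or 3 (limma adjusted p = 0.0566, 0.0565 and 0.0523), Ctrl+L-Arg 1 (0.0618), DSS 2 or 3 (0.0741 and 0.0579), and DSS+L-Arg 1, 2 or 3 (0.0996, 0.143 and 0.129). With any mouse left out the log2 fold change ranged from 0.58 to 0.65. Slc7a4, a CAT relative without settled transport function, had a log2 fold change of 0.07 with DSS (limma adjusted p = 0.782).

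Slc7a14, a CAT relative of nervous tissue, was 6.92, 7.38 and 7.28 in Ctrl and 6.58, 6.76 and 6.14 in DSS, a log2 fold change of -0.70 (unadjusted p = 0.0124, limma adjusted p = 0.124). Slc6a17, a carrier of synaptic vesicles, was 6.97, 6.87 and 7.70 in Ctrl and 6.60, 6.54 and 6.37 in DSS, a log2 fold change of -0.68 (limma adjusted p = 0.215). The DSS mice lay below the Ctrl mice in both genes. The median of 18 markers of enteric neurons and glia was -0.13, 0.04 and 0.04 relative to the Ctrl mean in Ctrl and -0.22, -0.06 and -0.38 in DSS. Of the 18, 2 were under the 30th percentile by their means and 0 were called by limma in any comparison. With DSS 5 had an unadjusted p under 0.05, all lower (19.6% of all genes in either direction). The summed signal of the 18 markers was 0.916 to 1.05 in Ctrl, 0.874 to 1.04 in Ctrl+L-Arg, 0.793 to 1.24 in DSS and 0.832 to 0.943 in DSS+L-Arg. Their part in these values was not tested.

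Slc6a14 (ATB0,+) takes up neutral and cationic amino acids, L-Arg included, at the luminal face of the colon. It was 12.78, 12.91 and 12.77 in Ctrl, 12.68, 12.80 and 12.50 in Ctrl+L-Arg, 12.52, 12.05 and 12.48 in DSS and 12.46, 12.32 and 12.48 in DSS+L-Arg. All mice given DSS lay below all Ctrl mice. With DSS versus Ctrl the log2 fold change was -0.47 (SE 0.13, 95% interval -0.75 to -0.19, unadjusted p = 0.00375, limma adjusted p = 0.0669). It passed without DSS mouse 1 (-0.55, limma adjusted p = 0.0389). Between DSS+L-Arg and DSS it was 0.07 (95% interval -0.22 to 0.35).

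Slc6a19 (B0AT1), the main neutral amino acid carrier of the small intestine, was 5.65, 5.67 and 5.88 in Ctrl and 6.62, 8.27 and 5.95 in DSS. The DSS mice lay above the Ctrl mice and were widely spread, with mouse 2 highest. The log2 fold change was 1.21 (SE 0.44, limma adjusted p = 0.154), it was 0.55 without DSS mouse 2 (limma adjusted p = 0.283), and it passed without DSS mouse 3 (1.71, limma adjusted p = 0.037). In DSS+L-Arg it was 5.80, 6.48 and 5.76. The related Slc6a20a, outside the rule, was also highest in DSS mouse 2 (9.28), with a log2 fold change of 0.63 with DSS (limma adjusted p = 0.362).

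Slc6a9, the glycine carrier GlyT1, was 10.81, 10.94 and 10.83 in DSS+L-Arg and between 10.39 and 10.73 in the other 9 mice. The DSS+L-Arg mice lay above all others. The log2 fold change in DSS+L-Arg versus DSS was 0.29 (limma adjusted p = 0.278), and the gene is mentioned because of this pattern, after its values were seen.

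Among Slc6 members with other cargo, the taurine carrier Slc6a6 was 11.09, 11.56 and 11.35 in Ctrl, 11.01, 11.35 and 11.10 in Ctrl+L-Arg, 11.85, 12.52 and 11.51 in DSS and 10.77, 11.16 and 11.27 in DSS+L-Arg. The DSS mice lay above the DSS+L-Arg mice and overlapped the Ctrl mice. Slc6a6 had a log2 fold change of 0.63 with DSS (limma adjusted p = 0.157) and -0.89 in DSS+L-Arg versus DSS (SE 0.23, unadjusted p = 0.00255, limma adjusted p = 0.135). Of the 18 Slc6 members, none was called by limma in any comparison, and 4 had an unadjusted p under 0.05 with DSS, against 19.6% of all genes. Between DSS+L-Arg and DSS 15 of the 18 had a positive and 3 a negative log2 fold change, with a median of 0.085 against 0.0557 over all genes.

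All 7 Slc1 carriers had a lower mean with DSS than Ctrl, with a median log2 fold change of -0.30 against -0.0138 over all genes. None was called by limma, 3 had an unadjusted p under 0.05 (19.6% of all genes), and 2 did not overlap (25.0% of all genes). Slc1a2, the glutamate carrier GLT-1 of glia, was 6.50, 6.57 and 6.61 in Ctrl and 6.43, 6.12 and 6.14 in DSS (log2 fold change -0.33, limma adjusted p = 0.0848), and it passed without DSS mouse 1 (-0.43, limma adjusted p = 0.0197). Slc1a5 (ASCT2), which brings glutamine into dividing cells, was 10.53, 10.58 and 10.68 in Ctrl, 10.70, 10.58 and 10.90 in Ctrl+L-Arg, 10.52, 10.40 and 10.05 in DSS and 10.21, 10.31 and 10.34 in DSS+L-Arg. It was thus lower in all 6 mice given DSS than in all 6 without, although DSS mouse 1 and Ctrl mouse 1 were nearly level, and its log2 fold change was -0.27 with DSS (limma adjusted p = 0.263) and -0.44 in DSS+L-Arg versus Ctrl+L-Arg (limma adjusted p = 0.152). Without DSS mouse 3 the first was -0.14. Slc1a4 (ASCT1), a carrier of serine and alanine, was 9.04, 9.61 and 9.65 in Ctrl and 9.32, 7.61 and 8.78 in DSS, which overlapped (log2 fold change -0.86, SE 0.39, limma adjusted p = 0.254). Between DSS+L-Arg and DSS the Slc1 median was 0.072.

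The Slc43 carriers had higher means with DSS in all 3 members, with a median log2 fold change of 0.41 against -0.0138 over all genes, none called by limma and 2 at an unadjusted p under 0.05 (19.6% of all genes). Slc43a3, which carries purine nucleobases, was 8.48, 7.97 and 8.26 in Ctrl, 8.62, 7.71 and 9.15 in Ctrl+L-Arg, 8.93, 9.61 and 8.69 in DSS and 7.59, 7.89 and 7.86 in DSS+L-Arg. The DSS mice lay above the Ctrl mice and the DSS+L-Arg mice below both. For Slc43a3 it was 0.84 on the log2 scale with DSS (limma adjusted p = 0.177) and -1.30 in DSS+L-Arg versus DSS (SE 0.32, 95% interval -2.01 to -0.59, 2.46-fold, unadjusted p = 0.00191, limma adjusted p = 0.117). The effect of L-Arg with DSS minus that without it was -1.55 (unadjusted p = 0.00577, limma adjusted p = 0.266). Without Ctrl+L-Arg mouse 2 both passed, at -1.30 (limma adjusted p = 0.0405) and -1.94 (limma adjusted p = 0.044). Slc43a2 (LAT4), a carrier of branched-chain amino acids and phenylalanine, was at 0.41 and -0.44 in the same comparisons (limma adjusted p = 0.252 and 0.329), and Slc43a1 (LAT3) at 0.20 and 0.03.

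The 11 Slc38 carriers moved little. Their log2 fold changes with DSS ran from -0.31 to 0.34, none was called by limma in any comparison or had an unadjusted p under 0.05 with DSS, and the median was -0.048. Slc38a2 (SNAT2), the glutamine carrier induced when amino acids run short, was between 11.67 and 12.10 in all mice (log2 fold change with DSS 0.11, 95% interval -0.13 to 0.35, limma adjusted p = 0.661). Slc38a6 was 7.35, 7.53 and 7.61 in Ctrl and 7.65, 8.15 and 7.70 in DSS, without overlap (log2 fold change 0.34, limma adjusted p = 0.262). Slc38a9, the L-Arg sensor of the lysosome, was between 7.89 and 8.70 in all mice.

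Slc36a1 (PAT1), which exports small amino acids from lysosomes and takes them up with protons at the luminal face, was 11.02, 9.96 and 10.67 in Ctrl, 10.96, 9.90 and 10.41 in Ctrl+L-Arg, 9.64, 9.90 and 9.53 in DSS and 10.74, 9.59 and 9.85 in DSS+L-Arg. The DSS mice lay below the Ctrl mice, but mice within each of the other groups differed by over 1 on the log2 scale. Slc36a1 had a log2 fold change of -0.86 with DSS (SE 0.34, limma adjusted p = 0.192). The differences within Ctrl, Ctrl+L-Arg and DSS+L-Arg moved with 10 posterior Hox genes, which mark the distal end of the gut, a list added after the data were seen. The labels give no position along the colon for the piece taken. In the general methods of the study, tissue of the proximal and of the distal end was pooled for each mouse. The median of the Hox genes relative to the Ctrl mean was 0.25, -0.74 and 0.40 in Ctrl, 0.37, -0.66 and 0.315 in Ctrl+L-Arg, -0.74, -0.255 and -0.11 in DSS and 0.32, -0.92 and -0.82 in DSS+L-Arg. Within DSS the match failed, since mouse 3 had the highest Hox median and the lowest Slc36a1 signal. The 5 mice above 0 had the 5 highest Slc36a1 signals (10.41 to 11.02), and the other 7 lay between 9.53 and 9.96. With the Hox median as a covariate the Slc36a1 difference with DSS was -0.61 (limma adjusted p = 0.0871).

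Slc1a1, Slc6a4 and Slc6a8 differed between mice within both groups without DSS, and were picked for mention, by no rule, after their values were seen. The glutamate and cysteine carrier Slc1a1 was 10.05, 9.17 and 9.91 in Ctrl and 9.99, 9.08 and 9.27 in Ctrl+L-Arg. The serotonin carrier Slc6a4 was 9.16, 7.45 and 8.92 in Ctrl and 8.94, 7.91 and 8.44 in Ctrl+L-Arg. The creatine carrier Slc6a8 was 12.42, 11.87 and 12.24 in Ctrl and 12.33, 11.77 and 12.05 in Ctrl+L-Arg. In each of these genes mouse 2 was lowest in both groups, as it was in the Hox median. Other members with a wide spread went the other way. Mouse 2 of Ctrl and of Ctrl+L-Arg was highest in its group in Slc7a9 (8.03 and 8.15) and in Slc3a1 (11.15 and 11.07). The match with the Hox median thus holds for picked genes, and its cause was not tested. The log2 fold changes of Slc1a1, Slc6a4 and Slc6a8 with DSS were -0.85, -1.14 and -0.16 (limma adjusted p = 0.253, 0.344 and 0.765), and that of Slc6a4 was -0.52 without DSS mouse 3.

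**Figure D4:**
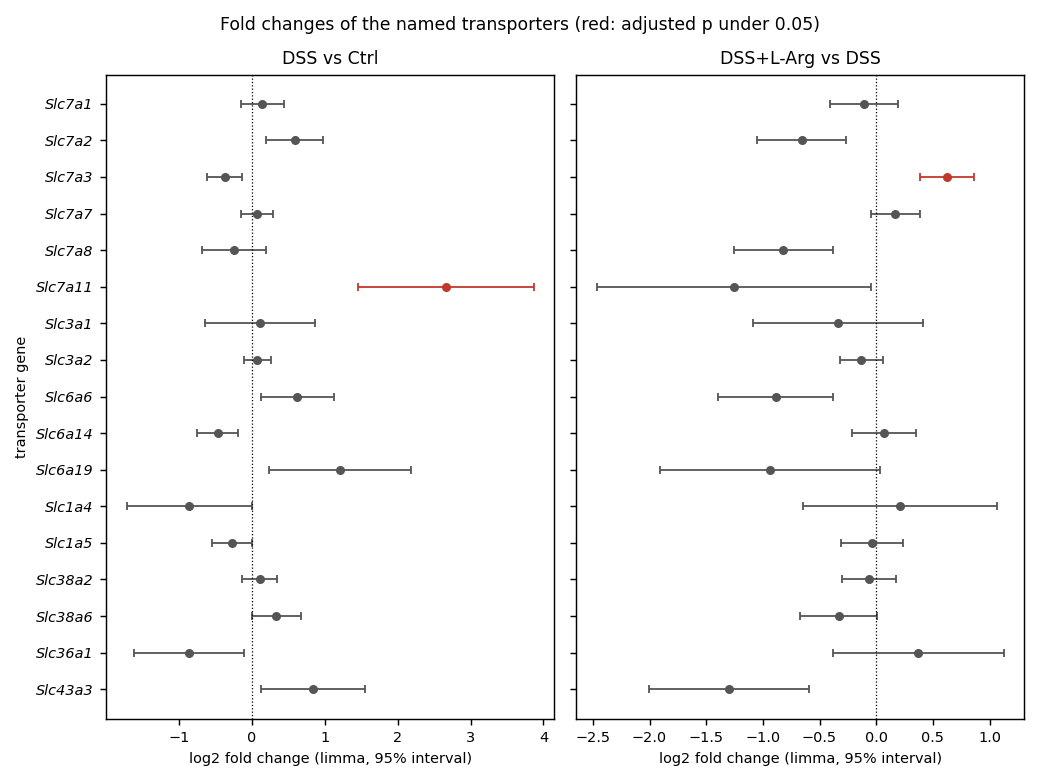
Log2 fold changes of 17 transporters with 95% limma intervals, for DSS versus Ctrl (left) and DSS+L-Arg versus DSS (right), in red where the adjusted p was under 0.05. Slc7a11 at left (2.66) and Slc7a3 at right (0.63) are the members in red, and Slc7a2, Slc7a8, Slc7a11, Slc43a3 and Slc6a6 at right have intervals below 0.

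Genes that act beside these transporters were read from lists of other carriers and of L-Arg and amino acid metabolism. Of 23 other amino acid and peptide carriers, 1 rose with DSS (1.8% of all genes), Slc15a3, a lysosomal peptide and histidine carrier of phagocytes. It was 6.13, 6.52 and 6.10 in Ctrl, 7.59, 7.335 and 8.48 in DSS and 6.295, 6.35 and 6.39 in DSS+L-Arg, so that the DSS mice stood above the rest. It rose by 1.55 with DSS (limma adjusted p = 0.00903) and fell by 1.46 in DSS+L-Arg versus DSS (limma adjusted p = 0.0359). It stands in the study's own list of such genes, drawn from these arrays. The first call was lost without Ctrl mouse 3 (1.48, limma adjusted p = 0.0503), and the second without Ctrl mouse 1 or 3, Ctrl+L-Arg mouse 1 or any DSS+L-Arg mouse (limma adjusted p from 0.0616 to 0.149). Of 2 partner proteins measured, none was called by limma in any comparison, and 0 had an unadjusted p under 0.05.

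Of 13 genes for L-Arg metabolism, 2 rose and 1 fell with DSS, against 1.8% and 2.23% of all genes. An unadjusted p under 0.05 with DSS was found for 8, 5 higher and 3 lower (19.6% of all genes), and 7 did not overlap (25.0% of all genes). Nos2, which encodes iNOS and makes nitric oxide from L-Arg, was 6.84, 7.57 and 6.06 in Ctrl, 8.81, 9.46 and 11.00 in DSS and 10.23, 8.97 and 8.44 in DSS+L-Arg, and it rose by 2.93 with DSS (limma adjusted p = 0.0173). Between DSS+L-Arg and DSS its log2 fold change was -0.545 (limma adjusted p = 0.699), or 0.08 without DSS mouse 3. The rise was not called without Ctrl mouse 1 or 3 (limma adjusted p = 0.0629 and 0.086). Nos3, the endothelial synthase, rose by 0.32 (limma adjusted p = 0.0424), and Otc, the urea cycle enzyme that makes citrulline in the gut, fell by 2.15 (limma adjusted p = 0.0387). The call of Nos3 was lost with any mouse left out (limma adjusted p from 0.0504 to 0.154). That of Otc was lost when any Ctrl or Ctrl+L-Arg mouse, DSS mouse 2 or 3, or DSS+L-Arg mouse 2 or 3 was left out (limma adjusted p from 0.0505 to 0.135), and its change was -1.63 without DSS mouse 3. Arg1 was at 1.23 with DSS (limma adjusted p = 0.151), with DSS mouse 3 at 8.40 and the other 2 at 6.06 and 6.54, and at 0.53 without that mouse. None of the 13 was called by limma in the other comparisons, and 1 had an unadjusted p under 0.05 in DSS+L-Arg versus DSS, against 13.5% of all genes.

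Of 22 genes of the amino acid stress response, 1 rose with DSS (1.8% of all genes), the transcription factor Cebpb (0.47, limma adjusted p = 0.0444). That call was lost with any mouse left out but DSS 1 or DSS 2 (limma adjusted p from 0.0525 to 0.148). The main factor of this response, Atf4, was at -0.08 and its target Asns, the asparagine synthetase, at 0.32 (limma adjusted p = 0.787 and 0.528). Without DSS mouse 3 Asns was at 0.01. The list ran from -1.10 for Atf3 to 1.33 for Ddit4 (limma adjusted p = 0.0767 and 0.0821). In all, 6 of the 22 had an unadjusted p under 0.05 with DSS (19.6% of all genes), 4 higher and 2 lower. In DSS+L-Arg versus DSS Atf3 was at 1.03, Ddit4 at -0.85 and Vldlr at -0.97 (limma adjusted p = 0.2, 0.371 and 0.0961). Of 20 genes that signal amino acids to mTORC1, 1 fell with DSS (2.23% of all genes), the lysosomal scaffold Lamtor2 (-0.59, limma adjusted p = 0.0324). Its call was lost when any Ctrl or DSS mouse or Ctrl+L-Arg mouse 1 was left out (limma adjusted p from 0.0509 to 0.134). Neither list had a call by limma in another comparison, and 6 and 4 of their genes had an unadjusted p under 0.05 in DSS+L-Arg versus DSS, against 13.5% of all genes.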

How the data were processed

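RNA from the colon of 12 mice was measured on Affymetrix Gene ST arrays. The labels gave each array's group and number, and call the arrays of a group biological replicates. The values are log2 signals as deposited by the authors, whose processing notes name Affymetrix Expression Console 1.1, RMA and mm9. RMA includes quantile normalization, so a shift common to most genes is hidden. An array yields no read count, and precision is limited by 3 mice a group. Of 35556 probe sets, 21789 matched 1 gene of the platform annotation. Those with several genes (1621) or none listed (12146) were left out. The brightest probe set was kept per gene (19938 genes). Arrays of a group differed by over 0.01 in at least 95.1% of genes, so none was a copy.

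One mean per group was fitted to all 12 arrays with limma 3.58.1 in R 4.3.3 (8 residual and 3.37 prior degrees of freedom), with Benjamini-Hochberg adjustment over all genes. The study names SAM with p under 0.01 and fold change over 2, so SAM and these thresholds were alternatives. Other alternatives were an unequal-variance test, a fit to the compared groups alone, a block for the replicate number, centring on array medians, a second quantile normalization, a filter on low values, averaging of probe sets, array weights, a robust prior with a trend, and each array left out in turn. A posterior Hox covariate was added after seeing the data. The pipeline was tested on simulated data. Python 3.11.15 with pandas 2.3.3 and matplotlib 3.10.9 served for tables and plots.

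Members named are those called in any comparison or with unadjusted p under 0.01 and fold change over 1.5, the CATs that the study names, the heavy chains, and in each family the gene with the highest mean and that with the largest DSS change. Other members were named to describe their family, after their values were seen. Members and lists were chosen with earlier results of these data known. Promoters came from RefSeq (GRCm38.p6), and no gene coordinates of mm9 are given. Nothing states that replicate numbers pair mice. The correlations of same-numbered mice were 0.205, 0.477 and 0.261 between Ctrl and Ctrl+L-Arg but of mixed sign or negative in the other comparisons.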

Additional observations from a re-analysis of the deposited data

How the results depend on the processing

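Counts of called transporters were small and moved with the setting, and so did the counts over all 19938 genes. In DSS versus Ctrl (1 member) the count was 0 in a fit of only the groups compared, by the unequal-variance test and by SAM, and 2 with the posterior Hox covariate, chosen after seeing the data (Slc7a11 and Slc6a14, which fell). All genes called went from 359 higher and 444 lower to 87 and 62 in the first fit, and to 510 and 779 with the covariate. With 1 mouse left out the member count ranged from 0 (Ctrl 1 or Ctrl 3) to 4 (DSS 1, with Slc7a11, Slc7a2, Slc6a14 and Slc1a2), and it was 2 without DSS 2 (Slc7a11, Slc7a5) or DSS 3 (Slc7a11, Slc6a19). All genes called were 127 higher and 135 lower without Ctrl 1, and 110 and 87 without Ctrl 3. They were 653 and 745 without DSS 1, 321 and 225 without DSS 2, and 323 and 420 without DSS 3. In DSS+L-Arg versus DSS (1 member) the member count was 0 in a fit of only the groups compared, with the low-value filter (which leaves out Slc7a3), by the unequal-variance test and by SAM, and 5 at p under 0.01 and fold change over 1.5 (Slc7a3 higher, Slc43a3, Slc6a6, Slc7a2 and Slc7a8 lower). At p under 0.01 and fold change over 2 the count stayed 1 with another gene, Slc43a3, which was lower, in place of Slc7a3. All genes called were 23 higher and 104 lower in the main fit, and 0 and 26 in the fit of only these groups. With the filter they were 23 and 101 of 14510, and the rule with fold change over 1.5 found 415 genes. With 1 mouse left out the member count ranged from 0 to 2, with 2 without Ctrl+L-Arg 2 (Slc7a3, Slc43a3) or DSS 1 (Slc7a3, Slc7a2). All genes called were then 24 higher and 128 lower without Ctrl+L-Arg 2, and 115 and 208 without DSS 1. Without DSS+L-Arg 2, where no member was called, they were 0 and 18. In DSS+L-Arg versus Ctrl+L-Arg (1 member) the member count was 2 with array weights (Slc7a7, Slc7a8), 0 by the unequal-variance test and 0 by SAM, and 0 to 2 with 1 mouse left out, with 2 without DSS 3 (Slc7a8, Slc7a11). All genes called went from 40 higher and 21 lower to 237 and 154 with array weights, and to 135 and 71 without DSS 3. A fit of only these groups (85 genes higher and 32 lower) kept a count of 1 with another gene, Slc7a11 (adjusted p = 0.0317) in place of Slc7a8 (adjusted p = 0.0652). In DSS+L-Arg versus Ctrl (0 members) the member count was 1 with array weights, 1 at p under 0.01 and fold change over 2, and 1 at fold change over 1.5 (Slc7a8 each time). All genes called went from 6 higher and 7 lower to 137 and 159 with array weights, and the other rules found 89 and 270 genes. For the difference between the L-Arg effects (0 members) the member count was 2 at p under 0.01 and fold change over 2 (Slc43a3, Slc7a8), 3 at fold change over 1.5 (also Slc7a3), and 0 to 1 with 1 mouse left out (Slc43a3 without Ctrl+L-Arg 2). The first 2 rules found 209 and 463 of all genes. Genes called went from 2 higher and 13 lower to 24 and 111 without Ctrl+L-Arg 2. In Ctrl+L-Arg versus Ctrl the member count was 0 in all settings run. Without Ctrl 1, 1 of all genes was called there. With 3 mice a group SAM orders 20 labellings, so its lowest adjusted p cannot pass. The cause of the other shifts was not tested.

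With the replicate number as a block the count was 0 in DSS+L-Arg versus DSS (Slc7a3, adjusted p = 0.0601) and 0 in DSS+L-Arg versus Ctrl+L-Arg (Slc7a8, adjusted p = 0.0624), and the block changed no other member count. Of all genes it left 30 called higher and 94 lower in the first, and 19 and 10 in the second. The samples may share only a number. Of 1690 log2 fold changes of the 17 genes named by the rule, in 5 comparisons between groups under 20 settings (all but array weights, SAM and the unequal-variance test), none changed sign against the main value while called, 1657 kept their side of the threshold, 24 lost it, 8 gained it, and 1 moved by more than the replicate spread (Slc7a2 in DSS+L-Arg versus Ctrl, -0.16 with quantile normalization).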
